A study of Rattus norvegicus with 6 samples.

Results

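The genes described here encode the secreted and membrane-bound metalloproteases of the extracellular matrix and the proteins that inhibit them. They were taken as every gene of the deposited table whose symbol begins with Mmp, Timp, Adamts or Adamtsl followed by a number. For a symbol with more than 1 row, the row with the highest mean count was kept, which concerned Mmp25 alone. This gave 47 genes of 23802 in the table, made up of 21 matrix metalloproteases (MMPs), 4 tissue inhibitors of metalloproteases (TIMPs), 19 ADAMTS proteases and 3 ADAMTS-like genes.

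MMPs and ADAMTS proteases are zinc enzymes that are made as inactive proforms and cut collagens, elastin, proteoglycans and other matrix proteins. ADAMTS proteases differ from MMPs in carrying thrombospondin-type repeats, and the ADAMTS-like proteins keep the repeats but have no protease domain. TIMPs are small secreted proteins that block the active site of these enzymes, and in the pulmonary hypertensive lung the group is known for its part in remodelling of vessel walls.

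PolyA RNA from whole lung was sequenced in 3 monocrotaline (MCT) samples and 3 control samples. MCT is a plant alkaloid that injures lung vessels and is widely used to induce pulmonary arterial hypertension in rats. The MCT samples came from wild-type male Sprague-Dawley rats of 200 to 250 g that received 60 mg/kg MCT as 1 injection, and the control samples from rats of the same strain, sex, genotype and weight that received saline. Lungs were taken after 4 weeks, and the labels disagree on whether MCT was given intraperitoneally or subcutaneously, while saline was subcutaneous. Whether each library is 1 animal or a pool is not stated, so the p-values cover only the spread among these libraries, and part of that spread may be technical. Summed counts were 14332930 to 17096157 in MCT libraries and 13525912 to 17916134 in control libraries, and 3 counts corresponded to between 0.167 and 0.222 CPM. The summed level of 11 alveolar epithelium markers was 16733 to 26665 CPM in MCT lungs and 28312 to 30957 CPM in control lungs, so the lung label stood with its markers. In bulk tissue, fewer cells of a type and less RNA per cell cannot be told apart.

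Of the 47 genes, 32 had enough counts to be tested and 15 did not. In MCT lungs 8 of the 32 rose and 1 fell at a Benjamini-Hochberg adjusted p under 0.05 over all genes, and 23 did not pass. The called share was 28.1%, against 13.1% of the 15250 genes tested in the whole table. Higher calls made up 25.0% of these genes, against 8.01% of all genes tested. The single lower call stood against a lower share of 5.11% over all genes. The genes that rose were Mmp2, Mmp12, Mmp14, Timp1, Timp3, Adamts2, Adamts4 and Adamts6, and the gene that fell was Mmp15. The median log2 fold change of MCT over control was 0.45 over the 32 genes and -0.01 over all genes tested. In normalized CPM, the MCT libraries lay wholly above the control libraries for 16 of the 32 genes and wholly below for 3. Over all genes tested, 18.4% lay wholly above and 17.0% wholly below, 35.4% in all. The count of higher calls ranged from 3 without control replicate 2 to 7 without MCT replicate 2, and it was 4 without MCT replicate 1, 4 without control replicate 3 and 5 without MCT replicate 3. The call of Mmp15 was lost without MCT replicate 3, control replicate 2 or control replicate 3.

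**Figure D1:**
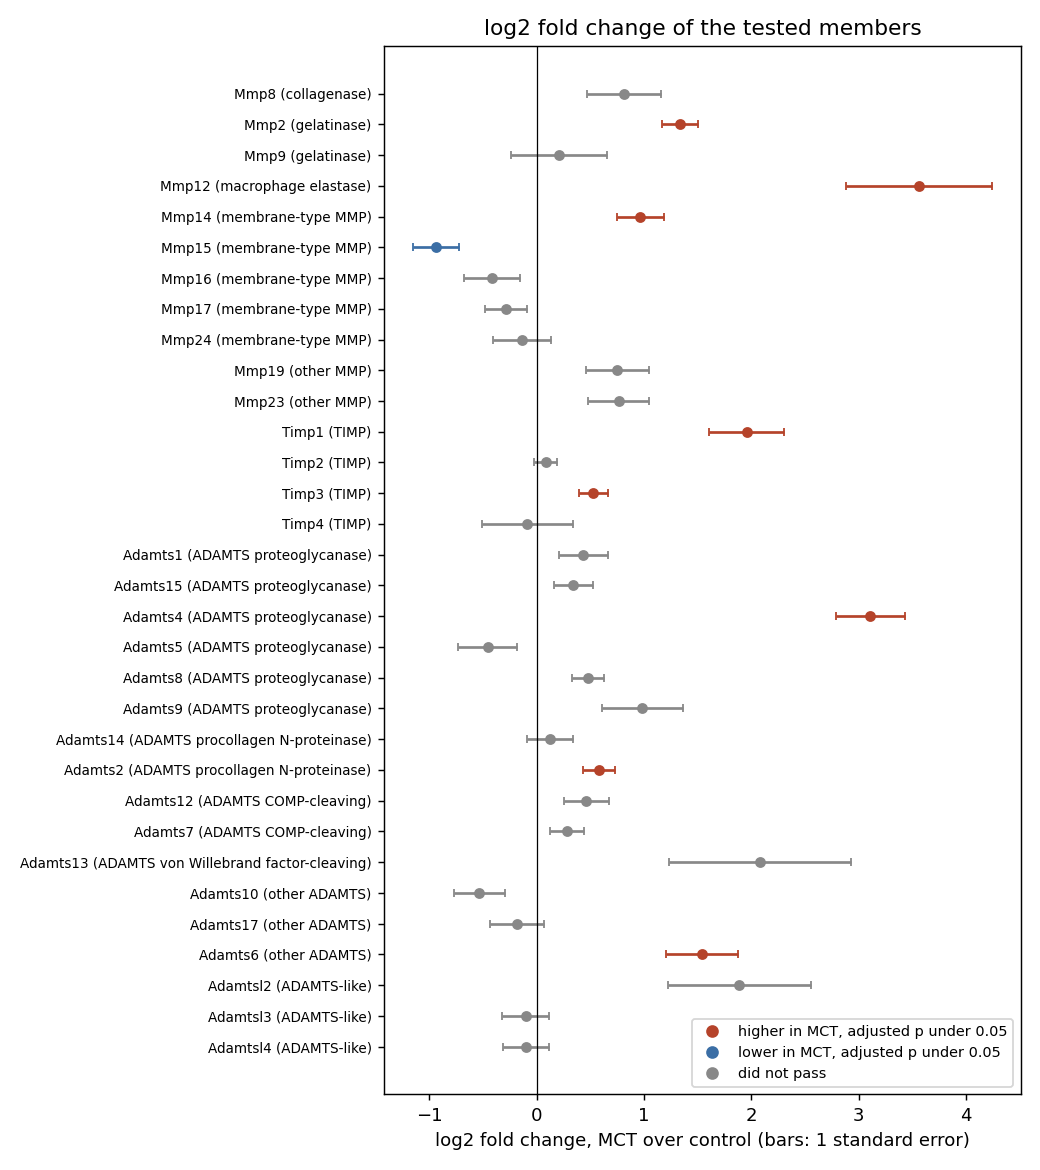
Log2 fold change of MCT over control (x axis) for the 32 tested genes by role, with bars of 1 standard error; red points were called higher, the blue point lower, and grey points did not pass. The 8 genes that rose lie between 0.53 and 3.56, and Mmp15, the gene that fell, lies at -0.94.

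**Figure D2:**
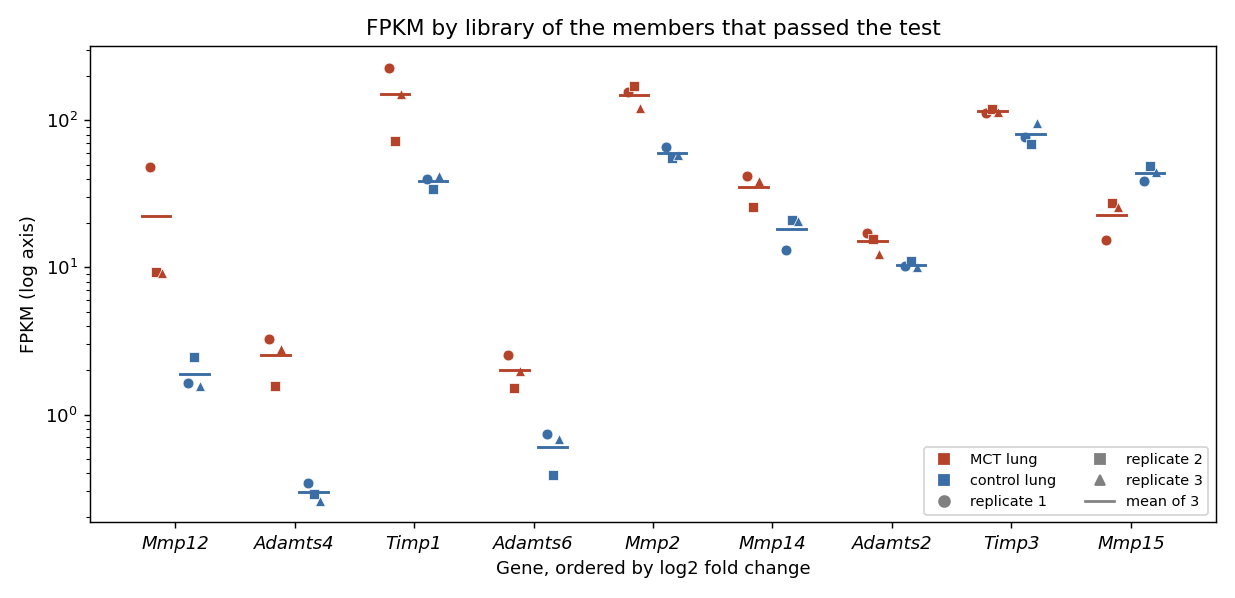
FPKM in each library (log axis) for the 9 genes that passed the test, ordered by log2 fold change, with MCT libraries left of control libraries; points are libraries, their shapes replicates, and lines group means. The MCT and control points are apart for all 9 genes, and MCT replicate 1 stands far above the other MCT points for Mmp12.

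Mmp2 and Mmp9 are the gelatinases, which cut denatured collagen and type IV collagen of basement membranes. Mmp2 (ENSRNOG00000016695) was at 156.48, 171.82 and 120.73 FPKM in MCT lungs, against 65.73, 55.20 and 58.18 FPKM in control lungs. All 3 MCT libraries were above all 3 control libraries, with means of 149.7 ± 26.2 FPKM in MCT lungs and 59.7 ± 5.43 FPKM in control lungs (SD, n = 3 each). This was a 2.52-fold rise (log2 fold change 1.33, SE 0.17, adjusted p = 0.00267), and it passed the test under each of the 15 alternative settings. Mmp9, the gelatinase stored by neutrophils, was low at 1.06, 0.50 and 0.49 FPKM in MCT lungs and 0.33, 0.66 and 0.80 FPKM in control lungs. The groups overlapped, at a log2 fold change of 0.20 (SE 0.45, adjusted p = 0.801).

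The membrane-type MMPs are held at the cell surface, where Mmp14 activates the Mmp2 proform in a complex with Timp2. Mmp14 (ENSRNOG00000010947) was at 41.82, 25.78 and 38.68 FPKM in MCT lungs, against 13.08, 21.11 and 20.54 FPKM in control lungs. The groups did not overlap, and the level was 1.96-fold higher in MCT lungs (log2 fold change 0.97, SE 0.22, adjusted p = 0.0252). The call held without MCT replicate 2 and was lost without any of the other 5 libraries, with adjusted p between 0.0551 and 0.0773.

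Mmp15 (ENSRNOG00000012622), another membrane-type collagen- and matrix-cutting protease, moved the other way. It was at 15.42, 27.33 and 25.70 FPKM in MCT lungs, against 38.57, 49.07 and 44.37 FPKM in control lungs. Every MCT library was below every control library, and the level was 1.91-fold lower in MCT lungs (log2 fold change -0.94, SE 0.21, adjusted p = 0.0256). Without MCT replicate 3, control replicate 2 or control replicate 3 the adjusted p was 0.0571, 0.0922 and 0.0793. Mmp16, Mmp17 and Mmp24 did not pass, at log2 fold changes of -0.42, -0.29 and -0.14 (adjusted p = 0.318, 0.369 and 0.776). Mmp17, which is anchored by a lipid, was at 2.07 to 2.34 FPKM in MCT lungs and 2.53 to 2.86 FPKM in control lungs without overlap.

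Markers of the cell types that line vessels and airspaces were read beside Mmp15, where 5.11% of all genes tested were called lower and 8.01% higher. The 12 tested endothelium markers held 4 that fell and none that rose (2 to 7 lower when single libraries were left out), and Tek, the angiopoietin receptor, was among those that fell (log2 fold change -2.38, SE 0.29, adjusted p = 0.00246). Their summed level was 2231 to 3938 CPM in MCT lungs and 3884 to 4387 CPM in control lungs. Of the 11 alveolar epithelium markers 3 fell, at the summed levels given above, and 0 to 2 when single libraries were left out. Their part in the lower Mmp15 level was not tested.

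Of the MMP genes, 10 lie side by side on rat chromosome 8 with no other protein-coding gene between them, in the order Mmp13, Mmp12, Mmp1b, Mmp3, Mmp1, Mmp10, Mmp8, Mmp27, Mmp20 and Mmp7 in RefSeq's GRCr8 annotation. They encode collagenases (Mmp1, Mmp1b, Mmp8, Mmp13), stromelysins (Mmp3, Mmp10), the macrophage elastase Mmp12, the matrilysin Mmp7, the enamel protease Mmp20 and Mmp27. Only Mmp12 and Mmp8 had enough counts to be tested. Several of these genes are known for a proximal pair of promoter elements, a TATA box and a site for AP-1, the Fos-Jun family of stress- and cytokine-induced factors. The promoter stretches of the 6 genes in which a script found both are shown here because the cluster holds Mmp12, which rose, beside genes that were barely detected. They come from RefSeq (GRCr8), are written 5′ to 3′ along the gene, and have in capitals the AP-1 letters TGAGTCA, or TGACTCA where the opposite strand carries them, and the TATA letters TATAAA.
Mmp12, chr8:12866562-12866626, plus strand: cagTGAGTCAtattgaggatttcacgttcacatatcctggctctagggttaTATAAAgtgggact
Mmp1, chr8:12943363-12943427, plus strand: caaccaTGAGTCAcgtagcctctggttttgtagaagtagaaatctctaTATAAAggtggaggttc
Mmp7, chr8:13132953-13133017, plus strand: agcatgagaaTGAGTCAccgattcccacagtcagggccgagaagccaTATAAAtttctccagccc
Mmp3, chr8:12925191-12925255, plus strand: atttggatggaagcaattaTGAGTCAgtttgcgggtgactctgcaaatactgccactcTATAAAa
Mmp13, chr8:12782709-12782803, plus strand: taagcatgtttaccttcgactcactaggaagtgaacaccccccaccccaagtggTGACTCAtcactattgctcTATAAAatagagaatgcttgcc
Mmp10, chr8:12974617-12974681, plus strand: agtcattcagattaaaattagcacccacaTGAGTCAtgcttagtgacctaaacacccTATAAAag

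The AP-1 letters began 87 bases before the annotated start of Mmp12, 84 before Mmp1, 80 before Mmp7, 71 before Mmp3, 66 before Mmp13 and 61 before Mmp10. TGAGTCA on either strand stood in the 250 bases before to 50 bases after the start in 6 of the 10 cluster genes and in 0 of the 26 other genes of the group with a RefSeq promoter. The share over all 33469 rat promoters of this length was 4.63%. TATAAA on either strand was held by 13 of the 36 matched genes (36.1%), against 14.2% of all promoters. A gene with several windows was counted if any of them matched, so shares of genes and of promoters are not counted alike. A match says only that these letters stand in the window, and the AP-1 and TATA letters do not overlap in these stretches.

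Mmp12 (ENSRNOG00000030187), which cuts elastin, was at 48.18, 9.35 and 9.12 FPKM in MCT lungs, against 1.64, 2.48 and 1.56 FPKM in control lungs. All MCT libraries were above all control libraries, but MCT replicate 1 was far above the other 2, which gives 22.2 ± 22.5 FPKM in MCT lungs and 1.89 ± 0.51 FPKM in control lungs (SD, n = 3 each). The fitted rise was 11.8-fold (log2 fold change 3.56, SE 0.68, adjusted p = 0.0134). Without MCT replicate 1 the log2 fold change was 2.31, and the call was lost without control replicate 2 (adjusted p = 0.0530), without control replicate 3 (0.0647) and with limma-voom (0.0531).

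Mmp8, the neutrophil collagenase, was at 5.28, 3.84 and 3.32 FPKM in MCT lungs and 3.31, 2.42 and 1.35 FPKM in control lungs. The groups overlapped in normalized counts and the log2 fold change of 0.81 did not pass (SE 0.35, adjusted p = 0.155). Mmp7, which acts at epithelial surfaces, had 12, 8 and 1 counts in MCT lungs and no count in the 3 control lungs. With the control group set at a floor of 3 counts, the summed 21 MCT counts of Mmp7 gave a ratio of 7.17, with no test. This ratio leaves out the spread of the MCT counts, 12 of which came from MCT replicate 1. The control level of Mmp7 was not detectable at this depth. Mmp13 had 6, 4 and 1 counts in MCT lungs and 1, 0 and 5 counts in control lungs. Mmp1, Mmp3, Mmp10 and Mmp20 had at most 2 counts in any MCT library and none in control lungs, and Mmp1b and Mmp27 had none in any library. The 6 genes with both the AP-1 and the TATA letters ranged from 48.18 FPKM to no count in MCT lungs.

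**Figure D3:**
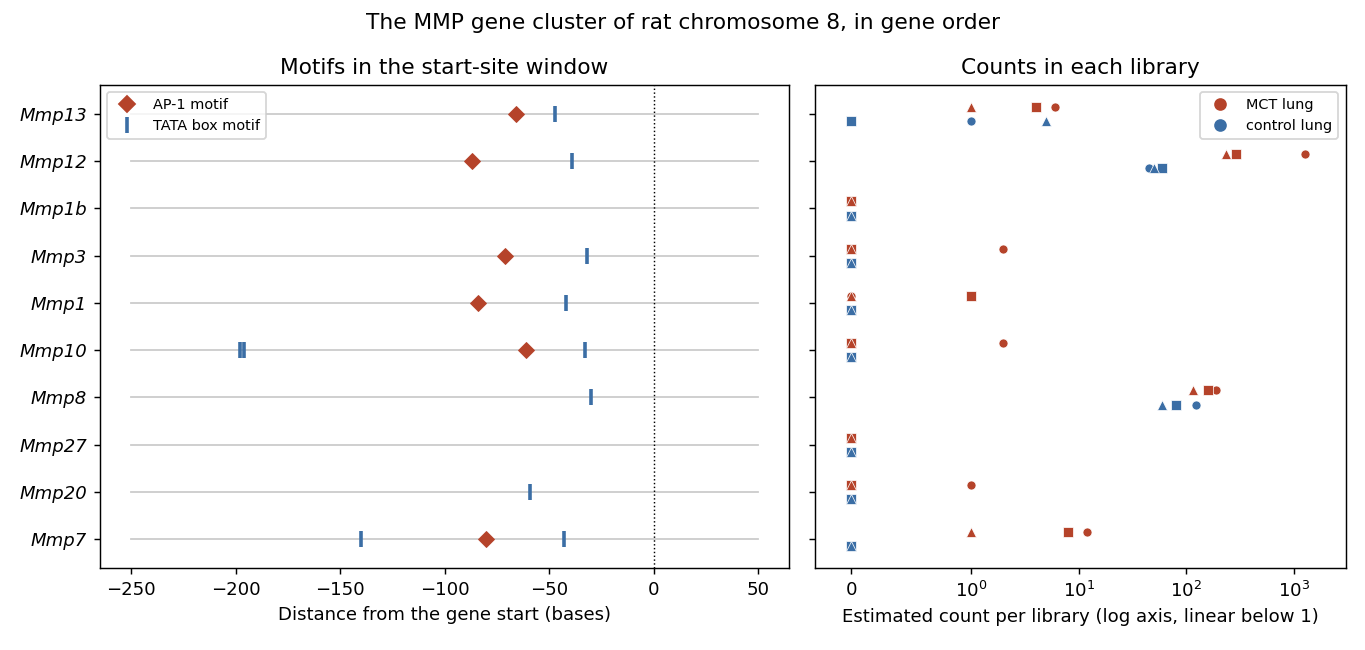
The 10 MMP genes of the chromosome 8 cluster in gene order. The left panel marks AP-1 and TATA box letters by distance in bases from the gene start, and the right panel gives the estimated count in each library on a log axis that is linear below 1, with MCT in red above control in blue and shapes for replicates. Mmp12 and Mmp8 stand above the rest in both groups, and Mmp7 has 12, 8 and 1 counts in MCT lungs and none in control lungs.

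Macrophage and neutrophil markers were read beside Mmp12, Mmp8 and Mmp9, where 8.01% of all genes tested were called higher and 5.11% lower. Of 10 tested macrophage markers 7 rose (4 to 8 when single libraries were left out), among them Cd68 (log2 fold change 1.96, SE 0.25, adjusted p = 0.00282) and Siglec1 (1.96, SE 0.22, adjusted p = 0.00191). Cd68, a lysosomal glycoprotein, was at 171.0, 91.0 and 96.2 CPM in MCT lungs and 28.7, 35.5 and 27.7 CPM in control lungs, so MCT replicate 1 was highest as it was for Mmp12. The summed macrophage level was 24249, 29433 and 33806 CPM in MCT lungs and 29949, 39054 and 34476 CPM in control lungs. MCT replicate 1 was the lowest for this sum, unlike for Mmp12, and lysozyme (Lyz2) made up most of it. Among 8 tested neutrophil markers 1 rose (3 without MCT replicate 2 and 3 without MCT replicate 3), which was Lcn2 (log2 fold change 4.06, adjusted p = 0.0034), a gene that epithelium also expresses. The other 7 neutrophil markers did not pass, 6 of the 8 overlapped between the groups, and the median log2 fold change over the 8 was 1.10. The neutrophil sum was 794 to 3125 CPM in MCT lungs and 87.1 to 212 CPM in control lungs, and the share of each gene in it is not reported here. Ltf, a granule protein of neutrophils, had no count in any library. The part of these cells in the MMP levels was not tested.

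Outside the cluster, Mmp19 and Mmp23 remained. Mmp19 was at 14.96, 7.12 and 7.73 FPKM in MCT lungs and 6.05, 6.78 and 4.90 FPKM in control lungs. Each MCT library lay above the controls for Mmp19, yet the difference did not pass (log2 fold change 0.75, SE 0.29, adjusted p = 0.127). Mmp23 likewise lay above the controls in each MCT library, at 2.83 to 5.85 FPKM in MCT lungs and 2.38 to 2.52 FPKM in control lungs, and did not pass (log2 fold change 0.76, adjusted p = 0.115). Without MCT replicate 2 it passed, at 0.98 (adjusted p = 0.0408). For Mmp25 the row kept was an assembled locus, and the counts of its other row are not reported here. The kept row had 19, 10.29 and 7 counts in MCT lungs and 5.28, 11.11 and 9.39 counts in control lungs and was not tested. Mmp21 had no count.

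All 4 TIMPs were tested, and 2 of them rose. Timp1 (ENSRNOG00000010208), an inducible inhibitor of most secreted MMPs, was at 228.28, 72.33 and 150.29 FPKM in MCT lungs, against 40.18, 34.07 and 42.09 FPKM in control lungs. The lowest MCT library was above the highest control library, and the MCT libraries were spread widely, at 150.3 ± 78.0 FPKM in MCT lungs and 38.8 ± 4.19 FPKM in control lungs (SD, n = 3 each). The rise was 3.89-fold (log2 fold change 1.96, SE 0.35, adjusted p = 0.0103) and missed the threshold without control replicate 2 (0.0536). By mean FPKM among all 47 genes, Timp1 ranked 2 in MCT lungs and 6 in control lungs.

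Timp1 lies within the span of Syn1 in RefSeq's annotation, and whether reads were counted by strand is not stated in the sources used here. Syn1, a synaptic vesicle protein, had 25, 28 and 18 counts in MCT lungs and 5, 7 and 9 counts in control lungs, beside 2478, 915 and 1594 Timp1 counts in MCT lungs and 456, 341 and 558 in control lungs. Syn1 rose by 1.77 on the log2 scale (adjusted p = 0.0225). The counts of both genes were whole in every library. Overlap was judged on gene spans and not on exons, so whether the 2 genes shared any reads was not tested. A stretch of the Timp1 promoter is shown as the inhibitor's counterpart of the cluster promoters, with a GC box (GGGCGG, here as CCGCCC) and the AP-1 variant TGAGTAA in capitals. RefSeq's GRCr8 sequence is written 5′ to 3′ along the gene.
Timp1, chrX:3771178-3771277, minus strand: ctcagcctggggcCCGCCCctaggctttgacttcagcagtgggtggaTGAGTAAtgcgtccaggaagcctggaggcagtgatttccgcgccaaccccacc

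TGAGTAA on either strand was found in 3 of the 36 matched genes (8.33%), Timp1, Mmp3 and Adamts13, against 2.9% of all promoters. Adamts13 held it in several start-site windows, and a gene was counted if any of its windows matched. Shares of genes and shares of promoters are therefore not counted alike. GGGCGG was found in 17 of the 36 (47.2%), against 33.1% of all promoters.

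Timp3 (ENSRNOG00000004303), which binds the matrix and also inhibits ADAMTS proteases, was at 111.93, 118.93 and 113.99 FPKM in MCT lungs, against 76.69, 68.69 and 95.54 FPKM in control lungs. All MCT libraries were above the controls and close together. The rise was 1.44-fold (log2 fold change 0.53, SE 0.13, adjusted p = 0.0349), and it kept its call among the single-library omissions only without control replicate 3, with adjusted p of 0.0621 to 0.108 for the other 5. Timp2 had the highest mean FPKM of the 47 genes in both conditions, although Timp1 was above it in MCT replicate 1 and Mmp2 in MCT replicate 2. Its level was 164.25, 152.80 and 153.11 FPKM in MCT lungs and 142.85, 145.51 and 157.80 FPKM in control lungs. It did not pass (log2 fold change 0.09, SE 0.11, adjusted p = 0.649). Timp4 was the scarcest, at 1.0 to 1.64 FPKM in MCT lungs and 0.79 to 2.11 FPKM in control lungs, with a log2 fold change of -0.09 (SE 0.42, adjusted p = 0.918) that turned positive without MCT replicate 1 (0.09), without control replicate 1 (0.35) and with limma-voom (0.04).

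The ADAMTS proteoglycanases cut aggrecan, versican and related proteoglycans. Adamts4 (ENSRNOG00000003538), an aggrecanase induced by cytokines, was at 3.24, 1.57 and 2.80 FPKM in MCT lungs, against 0.34, 0.29 and 0.26 FPKM in control lungs. The lowest MCT library was several times the highest control library, from 268, 151 and 226 counts in MCT lungs and 29, 22 and 26 counts in control lungs. The rise was 8.63-fold (log2 fold change 3.11, SE 0.32, adjusted p = 0.00126) and passed under each of the 15 alternatives. On the log2(FPKM + 1) scale, which understates low genes, it was 1.42.

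The other tested proteoglycanases did not pass. Adamts15 had the highest mean level of them, and Adamts1, next to it, is the founding member of the family and is known in ovulation. Adamts15 was at 21.73, 32.25 and 24.66 FPKM in MCT lungs and 23.69, 20.35 and 18.26 FPKM in control lungs (log2 fold change 0.34, SE 0.18, adjusted p = 0.241), with overlap. Adamts1 was at 34.21, 17.49 and 21.63 FPKM in MCT lungs and 20.64, 16.33 and 17.38 FPKM in control lungs (0.44, adjusted p = 0.241), where MCT replicate 1 stood apart.

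Adamts8 and Adamts9 lay above the controls in every MCT library without passing. Adamts8, at 17.48, 18.94 and 21.88 FPKM in MCT lungs and 15.40, 11.57 and 14.99 FPKM in control lungs, did not pass at a log2 fold change of 0.48 (SE 0.15, adjusted p = 0.0667), and DESeq2 called it (adjusted p = 0.0373). Adamts9, at 11.49, 10.99 and 9.69 FPKM in MCT lungs and 9.44, 3.42 and 3.38 FPKM in control lungs, did not pass at 0.98 (SE 0.38, adjusted p = 0.121). Control replicate 1 was close to the MCT libraries for Adamts9. Without control replicate 1 the log2 fold change was 1.69 (adjusted p = 0.00291), and DESeq2 called it with all 6 libraries (adjusted p = 0.0351). Adamts5, the aggrecanase of mouse cartilage loss, was at 0.83 to 1.26 FPKM in MCT lungs and 1.28 to 1.5 FPKM in control lungs (log2 fold change -0.46, adjusted p = 0.309). Adamts20 had at most 5 counts in any library and was not tested.

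Procollagen N-proteinases remove the amino-terminal propeptide so that collagen can form fibrils. Adamts2 (ENSRNOG00000061484) was at 17.26, 15.54 and 12.35 FPKM in MCT lungs, against 10.22, 11.00 and 10.07 FPKM in control lungs. The groups did not overlap, and the level was 1.49-fold higher in MCT lungs (log2 fold change 0.58, SE 0.15, adjusted p = 0.0369). The call was lost on both FPKM scales (adjusted p = 0.0703 and 0.0676) and without each library other than MCT replicate 3 (0.0665 to 0.134). Adamts14 did not pass, at 3.93, 5.88 and 4.23 FPKM in MCT lungs and 4.84, 4.59 and 3.46 FPKM in control lungs (log2 fold change 0.13, adjusted p = 0.733). Adamts3 had 14, 3 and 13 counts in MCT lungs and 2, 5 and 9 counts in control lungs and was not tested.

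Fibroblast and smooth muscle markers were read beside Mmp2, Mmp14, Timp1 and Adamts2, where 8.01% of all genes tested were called higher and 5.11% lower. Among 14 tested fibroblast markers 2 rose and 2 fell (2 to 5 and 0 to 2 when single libraries were left out), with a summed level of 1668 to 1758 CPM in MCT lungs and 1438 to 1530 CPM in control lungs. The other 10 fibroblast markers did not pass, and the median log2 fold change over the 14 was -0.0008. Type I collagen gene Col1a1 was one that rose (log2 fold change 1.11, SE 0.15, adjusted p = 0.00336). Of 14 smooth muscle and pericyte markers 4 rose and none fell (1 to 6 higher and 0 to 1 lower when single libraries were left out), and the contractile protein gene Smtn had the smallest p of them (log2 fold change 0.90, SE 0.14, adjusted p = 0.00729), and the sum was 1399 to 1988 CPM in MCT lungs and 1104 to 1224 CPM in control lungs. Their part in the higher protease and inhibitor levels was not tested.

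Adamts7 and Adamts12 cut cartilage oligomeric matrix protein. Neither passed, although the Adamts7 level was 2.20 to 2.42 FPKM in MCT lungs and 1.75 to 1.96 FPKM in control lungs without overlap (log2 fold change 0.28, adjusted p = 0.271). Adamts12 was at 4.56, 3.20 and 3.09 FPKM in MCT lungs and 3.09, 1.97 and 2.84 FPKM in control lungs (log2 fold change 0.46, SE 0.21, adjusted p = 0.183).

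Adamts13, which trims von Willebrand factor multimers in blood and is known mainly from liver stellate cells, had a wide control spread. It was at 6.51, 7.97 and 5.46 FPKM in MCT lungs and 0.21, 4.16 and 0.43 FPKM in control lungs. The groups did not overlap, but control replicate 2 was nearer the MCT libraries than the other controls, and the log2 fold change of 2.08 did not pass (SE 0.85, adjusted p = 0.14). Without control replicate 2 it was 4.37 (adjusted p = 0.00522), and with all libraries it passed with limma-voom (adjusted p = 0.0227) and on the log2(FPKM + 1) scale (0.0443). None of its 6 estimated counts was a whole number, and the gene overlaps Cacfd1, whose 412.42, 458.31 and 424.38 counts in MCT lungs and 367.83, 407.85 and 396.52 in control lungs gave a log2 fold change of 0.15 (adjusted p = 0.553). How the deposited counts divided reads between the 2 genes is not stated in the sources used here. The substrate gene Vwf did not pass (log2 fold change 0.00, adjusted p = 0.997); it is named outside the rule.

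Among the remaining ADAMTS genes, Adamts6 rose. Adamts6 (ENSRNOG00000012655), a close relative of Adamts10, was at 2.53, 1.52 and 1.99 FPKM in MCT lungs, against 0.74, 0.39 and 0.68 FPKM in control lungs. No MCT library reached down to the controls, at 57, 41 and 47 counts in MCT lungs and 17, 12 and 23 counts in control lungs. The rise was 2.90-fold (log2 fold change 1.54, SE 0.34, adjusted p = 0.0214), and without each library other than MCT replicate 2 the adjusted p was 0.0508 to 0.08. On the log2(FPKM + 1) scale its log2 fold change was 0.90.

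Adamts10, which binds fibrillin microfibrils, was far more abundant than its relative per length. It was at 37.56, 75.28 and 47.69 FPKM in MCT lungs and 78.36, 80.15 and 75.00 FPKM in control lungs, with MCT replicate 2 inside the control range. The log2 fold change of -0.53 did not pass (SE 0.24, adjusted p = 0.172), and without MCT replicate 2 it was -0.87 (adjusted p = 0.0107). Adamts17 did not pass either (log2 fold change -0.18, adjusted p = 0.679). Adamts19 had 12, 11 and 5 counts in MCT lungs and 4, 6 and 4 in control lungs, Adamts16 had 1 count in all, Adamts18 had none, and none of the 3 was tested.

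The ADAMTS-like genes encode matrix proteins without a protease domain. Adamtsl2, which binds fibrillin and is mutated in human geleophysic dysplasia, was at 55.00, 131.96 and 71.12 FPKM in MCT lungs and 48.55, 14.28 and 6.53 FPKM in control lungs. The groups did not overlap, but control replicate 1 was close to the lowest MCT library, and the log2 fold change of 1.89 did not pass (SE 0.67, adjusted p = 0.0995). Without control replicate 1 it was 3.07 (adjusted p = 0.0157). Adamtsl3 and Adamtsl4 were both at -0.10 (adjusted p = 0.795 and 0.802) and overlapped between the groups.

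**Figure D4:**
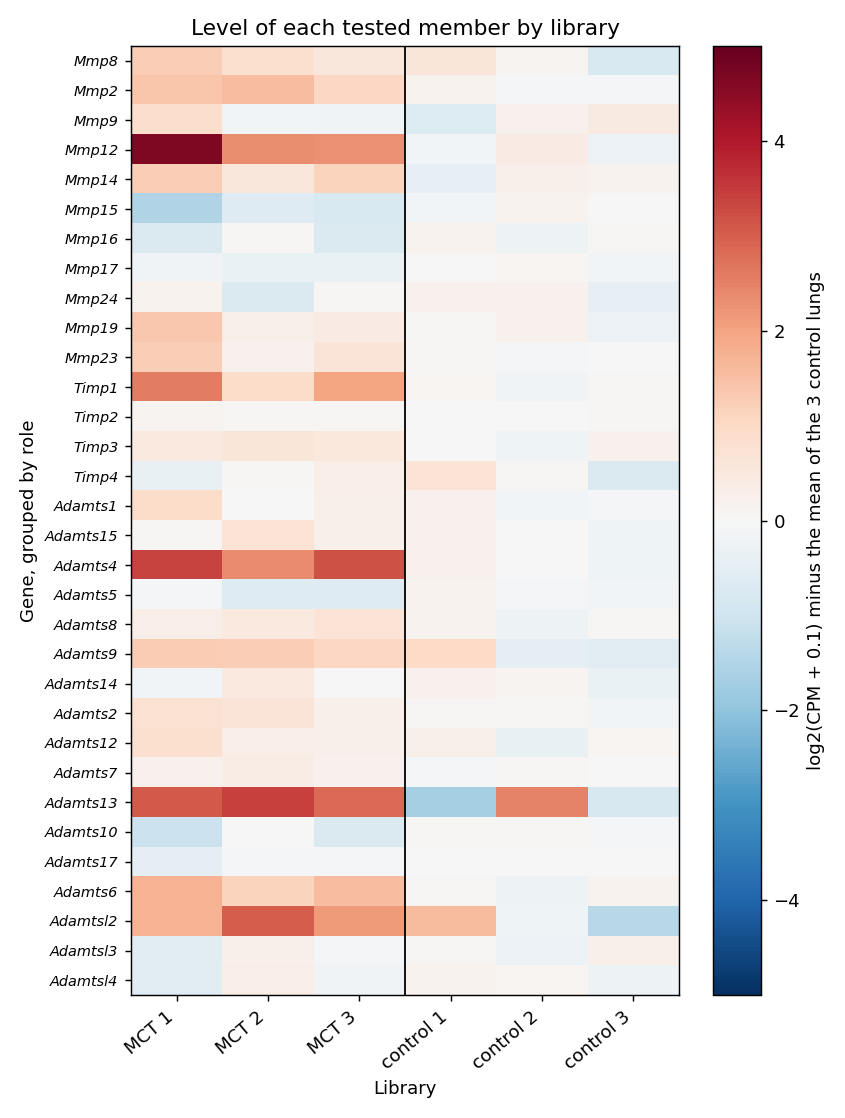
Log2 of CPM plus 0.1 in each library (columns, MCT left of control) for the 32 tested genes (rows, by role), less the mean of the 3 control libraries; red is above and blue below that mean. MCT replicate 1 is highest for 6 of the 8 genes that rose, and control replicate 1 stands nearer the MCT libraries for Adamts9 and Adamtsl2.

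The MCT libraries differed among themselves in a way that several genes shared. Of the 8 genes that rose, MCT replicate 1 had the highest level for 6 (Mmp12, Mmp14, Timp1, Adamts2, Adamts4 and Adamts6) and MCT replicate 2 for Mmp2 and Timp3. MCT replicate 2 had the lowest MCT level for Mmp14, Timp1, Adamts4 and Adamts6. By mean FPKM, Mmp12 ranked 11 in MCT lungs and 24 in control lungs, and Mmp15 ranked 10 in MCT lungs and 5 in control lungs.

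Summed over each family, FPKM of the TIMPs and of the MMPs was higher in MCT lungs, while that of the ADAMTS proteases overlapped, given here without a test. The 4 TIMPs summed to 505.46, 345.40 and 419.03 FPKM in MCT lungs and 261.83, 249.62 and 296.22 FPKM in control lungs, a ratio of 1.57. The MMPs summed to 300.43, 257.73 and 218.79 FPKM in MCT lungs and 142.94, 151.46 and 144.30 FPKM in control lungs, a ratio of 1.77. For the ADAMTS proteases the sums were 165.24, 195.21 and 159.97 FPKM in MCT lungs and 171.53, 158.79 and 151.42 FPKM in control lungs, which overlap, a ratio of 1.08.

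Single genes carried much of these sums. Mmp2 was 52.1%, 66.7% and 55.2% of the MMP sum in MCT lungs and 46.0%, 36.4% and 40.3% in control lungs. Mmp15 was 5.13%, 10.6% and 11.7% of it in MCT lungs and 27.0%, 32.4% and 30.7% in control lungs. Its transcript thus took a larger share of the MMP sum in control lungs, and the share also depends on the level of Mmp2. Mmp12 reached 16.0% in MCT replicate 1 and was at most 4.17% in any other library. Timp1 was 45.2%, 20.9% and 35.9% of the TIMP sum in MCT lungs and 15.3%, 13.6% and 14.2% in control lungs.

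**Figure D5:**
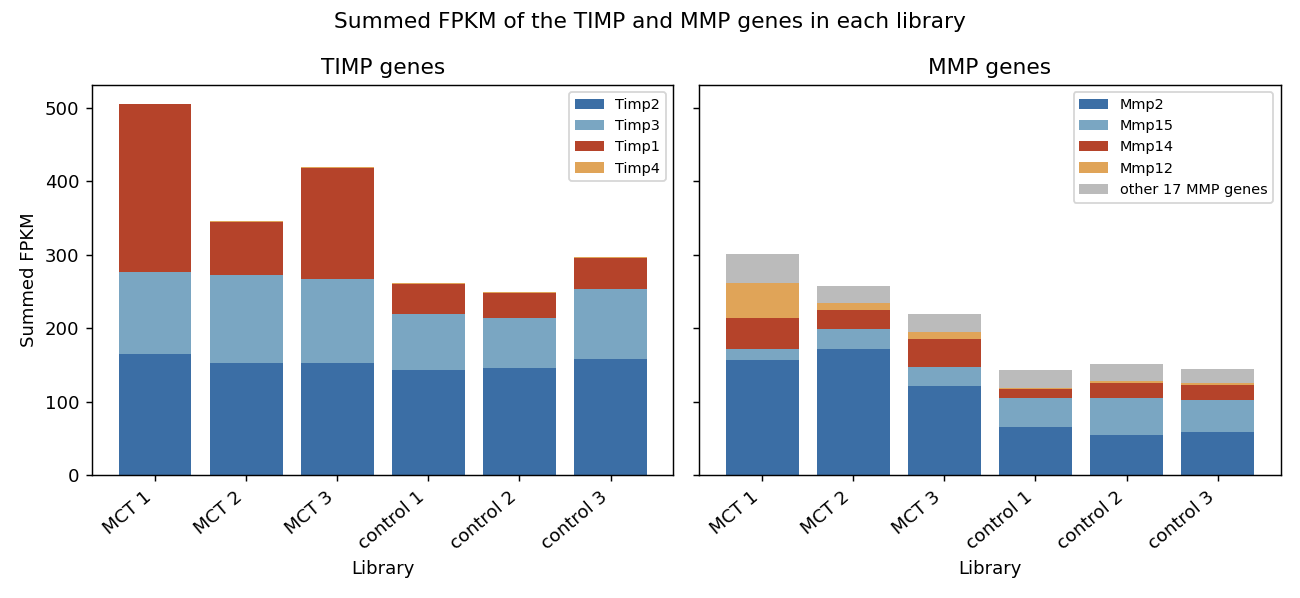
Summed FPKM of the 4 TIMP genes (left) and the 21 MMP genes (right) in each library, stacked by gene, with MCT libraries left of control libraries. The TIMP and MMP sums of all MCT libraries are above those of all control libraries; Timp1 and Mmp2 take a larger part of the MCT bars.

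Genes that act on these proteases, their substrates and the related ADAM proteases were counted from fixed lists. The shares to set beside each list are those over all genes tested, 8.01% higher and 5.11% lower. Of 14 tested activators and plasminogen system genes 5 rose and none fell (2 to 6 higher when single libraries were left out). Serpine2, a thrombin and plasminogen activator inhibitor, rose by 2.26 (SE 0.39, adjusted p = 0.00957) on the log2 scale, and Pcsk5, a proprotein convertase, by 0.80 (SE 0.15, adjusted p = 0.0125), a call lost without control replicate 2 (0.0538) or 3 (0.0578). F2r, the thrombin receptor, did not pass (0.55, adjusted p = 0.0532).

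Among 16 tested regulators and uptake receptors 5 rose and 2 fell (3 to 6 higher and 1 to 3 lower when single libraries were left out). Pcolce, which enhances removal of the carboxyl propeptide of procollagen, rose by 1.14 (SE 0.16, adjusted p = 0.00444), while Bmp1, the proteinase that removes it, was at 150.1, 195.6 and 204.7 CPM in MCT lungs and 359.0, 422.1 and 308.2 CPM in control lungs (log2 fold change -0.98, SE 0.17, adjusted p = 0.00949). Every MCT library was below every control library for Bmp1, the opposite side from Adamts2, which removes the other propeptide. Rarres1 rose by 1.81 (SE 0.25, adjusted p = 0.00384), and Bsg, a surface inducer of MMPs, did not pass (-0.01, adjusted p = 0.976).

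Of 17 tested proteoglycan and glycoprotein substrates 9 rose and none fell, and 2 to 10 rose when single libraries were left out. Fn1, fibronectin, was at 3802, 2451 and 2999 CPM in MCT lungs and 534.3, 651.7 and 576.8 CPM in control lungs (log2 fold change 2.39, SE 0.21, adjusted p = 0.000757). Fbn1, fibrillin, rose by 0.90 (SE 0.13, adjusted p = 0.00436), and Thbs2, a thrombospondin that binds Mmp2, by 3.96 (SE 0.71, adjusted p = 0.0107), a call lost without control replicate 2 (0.0556) or 3 (0.0518). Acan, the cartilage proteoglycan for which the aggrecanases are named, was at most 0.21 CPM in any library. Of 9 tested ADAM proteases, the membrane-anchored relatives of the ADAMTS family, 1 rose and none fell, while without MCT replicate 2 there were 2 higher and 1 lower and without any other library none in either direction. The gene that rose was Adam12 (log2 fold change 1.47, SE 0.40, adjusted p = 0.0465), and that call was lost without each library other than MCT replicate 2 (0.052 to 0.156).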

How the data were processed

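PolyA RNA of 6 rat lung samples was used, grouped by sample title into 3 MCT and 3 control libraries. Per the file headers, the authors deposited 1 table with an estimated count and an FPKM value per gene and library. Bowtie2, TopHat2 2.0.3.12 and the build Rnor_6.0 are named in the submitters' processing notes. The counting tool, its annotation and its use of strand are not stated in the sources used here. Between 90.7% and 91.5% of nonzero estimated counts per library were whole within 1e-09, and all were rounded, although the test had been planned for raw counts. Assembled loci took 1.74% to 2.16% of the counts, and libraries of a group differed beyond sampling noise (chi-square over its degrees of freedom, 23.5 to 53.3), which left all 6 separate.

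Genes were tested with the quasi-likelihood method of edgeR 4.0.16 in R 4.3.3, with TMM factors of 0.981 to 1.04, no covariates, and genes kept by filterByExpr (minimum count 10, minimum total 15), which left 15250. Adjusted p-values in the text are from this test with Benjamini-Hochberg adjustment over all 15250 genes unless another is named. Alternatives were DESeq2 1.42.0, limma-voom and limma on log2(FPKM + 1) and log2(FPKM + 0.1) (limma 3.58.1), median-of-ratios factors, no composition factors, no filter, a filter of 30 counts in 3 libraries, each library left out, and a replicate block. Leaving out each library for the lists was added after seeing the data. Overlap between groups was judged on TMM-normalized CPM, and levels are the authors' FPKM. Counts carry no molecular identifiers, so floors cover counting error only. A test planned for the summed FPKM is not reported, since the genes were chosen as a set.

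Values in every library are given for each gene that passed and for the most abundant gene of each role. From each list the 3 genes with the smallest p and the most abundant gene are named at most, and other genes (Acan, Ltf, Vwf and genes that overlap a described gene) are named outside the rule, after their values were seen. Some genes that are counted are not reported here by name. The genes and the 14 lists were chosen with earlier results of these data known. Promoters come from RefSeq (GRCr8), matched by symbol for 36 of the 47 genes. That build differs from the files', so no coordinates are given for other genes. Sequence motifs were searched on both strands.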

Additional observations from a re-analysis of the deposited data

How the results depend on the processing

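Over the 32 tested genes and 15 alternatives, 427 values kept direction and side of the threshold, 31 lost the call, 10 gained it and 11 reversed. Mmp9 had no value under the stricter filter, which removed it. Mmp2 (log2 fold change 1.21 to 1.47) and Adamts4 (1.42 to 3.36) were called under all 15 alternatives. DESeq2 called 10 of the genes higher and 1 lower, against 8 and 1 with edgeR, beside 1601 of all genes higher and 1182 lower, against 1221 and 779 with edgeR. When single libraries were left out, 3 to 7 of the genes were called higher and 0 to 2 lower, beside 481 to 1394 of all genes higher and 212 to 978 lower. The cause was not tested.

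The values that reversed belonged to genes that did not pass. Leaving out single libraries gave -0.24 to 0.46 for Mmp9 (lowest without MCT replicate 1, and -0.07 without control replicate 1), -0.32 to 0.095 for Mmp24 (highest without MCT replicate 2) and -0.39 to 0.35 for Timp4 (highest without control replicate 1, and 0.09 without MCT replicate 1). The range was -0.082 to 0.25 for Adamts14 (lowest without MCT replicate 2, and -0.02 without control replicate 3), -0.31 to 0.080 for Adamtsl3 (highest without MCT replicate 1, and 0.03 without control replicate 3) and -0.36 to 0.086 for Adamtsl4 (highest without MCT replicate 1). With limma-voom Timp4 was at 0.041.

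The log2 ratio of summed FPKM was 0.65 for TIMPs, 0.82 for MMPs and 0.11 for ADAMTS proteases. Without the most abundant gene of each it was 1.15, 0.34 and 0.54. Leaving out single libraries gave 0.51 to 0.78 for TIMPs, 0.70 to 0.93 for MMPs and 0.02 to 0.17 for ADAMTS proteases, and summed CPM gave 0.47, 0.68 and 0.19.

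Same-numbered libraries did not deviate together, with correlations of -0.067, -0.078 and -0.047. Whether libraries of the same number were handled as pairs cannot be told from these values. A fit with the replicate block called 7 of the genes higher and 1 lower, and 917 and 546 of all genes. It did not call Mmp14 (adjusted p = 0.0552) or Timp3 (0.0688) and called Adamts13 (0.0468).

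With 3 libraries a group, none of the 15 untested genes was above 19 counts in any library, and 9 of them had 2 counts or fewer in all. Low depth and absent expression cannot be told apart for these genes.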

Other observations

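A locus listed as LOC103694864 and annotated in RefSeq as similar to Mmp28 lies outside the set of genes described. It was picked after its values were seen, and had 64, 101 and 74 counts in MCT lungs and 98, 107 and 208 counts in control lungs (log2 fold change -0.73, adjusted p = 0.105).

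Other lists of cell markers were read once, where 8.01% of all genes tested were called higher and 5.11% lower. Of 10 tested mast cell markers 8 rose and 2 fell (8 and 0 to 2 when single libraries were left out), with a summed level of 797 to 2220 CPM in MCT lungs and 410 to 508 CPM in control lungs. Of 8 mesothelium markers 6 fell and none rose, at 332 to 367 CPM in MCT lungs and 520 to 576 CPM in control lungs, and 6 and 0 were also called whichever single library was left out. Of 7 club and airway epithelium markers 1 fell, a call kept without MCT replicate 3 and lost without any other single library, at 6847 to 13019 CPM in MCT lungs and 8835 to 14790 CPM in control lungs. Of 5 tested cartilage markers 1 fell, a call kept without MCT replicate 2, where 1 also rose, or without control replicate 3 and lost without any other single library, at 25.8 to 27.2 CPM in MCT lungs and 31.4 to 41.3 CPM in control lungs.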
